A study of Mus musculus with 20 samples.

Results

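A set of 17010 open chromatin regions lay more than 50 kb from every annotated gene start and held a peak in all 4 ATAC-seq peak lists of the embryonic gut mesenchyme, which made up 10.5% of the 162113 regions left after the lists were merged. Peaks that overlapped by 1 bp or more were merged across the lists, merged regions of 3000 bp or longer were dropped, and the 72439 remaining regions with a peak in every list were split by the distance of their centre to the nearest 5′ end of a gene model. The regions past 50 kb, called shared distal regions here, were 23.5% of those 72439. Presence in the 4 lists, width and distance chose these regions, so their peak values are given as a description and were not tested.

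The study compared stomach and intestinal mesenchyme of mouse embryos at E13.5, a stage in midgestation, with and without Eed. The labels give the strain as C57BL/6, while the methods describe mixed backgrounds for the Eedfl and Rosa26mTmG lines. Control cells carried Bapx1-cre and the Rosa26mTmG reporter, and Eed knockout (KO) cells carried the same 2 alleles together with Eedfl/fl, so that every group expressed Bapx1-cre. The Eedfl line, of mixed background, entered the Eed KO groups alone. The part of background in the differences between Eed KO and control was not tested. GFP+ cells, the progeny of cells in which the Bapx1 promoter had driven Cre, were sorted from the dissected stomach or intestine and used for ATAC-seq and RNA-seq, with 2 replicates per group and assay. Reads of the 2 ATAC-seq replicates were pooled before peaks were called, so each condition gave 1 list, the peak values carry no replicate error, and the depth behind them is unknown.

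ATAC-seq inserts sequencing adapters into DNA that is not wrapped in nucleosomes, and its peaks mark promoters, enhancers and insulator sites. Enhancers can lie far from the genes they act on, and long gene-poor stretches around developmental transcription factor genes are known for holding many of them. EED is a core subunit of Polycomb repressive complex 2 (PRC2), which methylates lysine 27 of histone H3 and keeps developmental genes silent.

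The regions whose values the results turn on are shown by the 300 bases at their centre, or whole where they are shorter, on the reference strand of GRCm38/mm10. Capitals mark matches, on either strand, to any of 20 short motifs of transcription factors; a match is a description of the letters, not a measured binding site. The first 4 are among the 5 regions with the highest fold enrichment over local background. Then follow the strongest one with a match to the CTCF motif (picked after its values were seen) and 2 that are among the 3 farthest from any gene start. The last 5 had peaks that differed between conditions.
chr6:103649070-103649292, strongest: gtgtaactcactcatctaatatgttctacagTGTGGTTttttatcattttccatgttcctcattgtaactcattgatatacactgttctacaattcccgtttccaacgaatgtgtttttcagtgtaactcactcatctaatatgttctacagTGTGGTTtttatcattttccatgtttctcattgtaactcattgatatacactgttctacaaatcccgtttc
chr12:78350871-78351170, second strongest: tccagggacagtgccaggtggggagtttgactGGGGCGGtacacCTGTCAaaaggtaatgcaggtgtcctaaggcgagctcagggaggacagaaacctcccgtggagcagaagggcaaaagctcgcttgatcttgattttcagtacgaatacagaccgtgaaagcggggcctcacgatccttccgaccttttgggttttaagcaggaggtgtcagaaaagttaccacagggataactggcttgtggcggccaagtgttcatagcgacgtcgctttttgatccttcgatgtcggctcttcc
chr10:11491975-11492251, strongest rank 4: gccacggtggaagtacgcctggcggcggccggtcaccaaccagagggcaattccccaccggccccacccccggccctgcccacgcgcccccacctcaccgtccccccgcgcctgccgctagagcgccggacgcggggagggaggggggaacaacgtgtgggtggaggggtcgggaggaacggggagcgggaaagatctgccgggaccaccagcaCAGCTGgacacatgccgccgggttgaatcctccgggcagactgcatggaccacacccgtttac
chr6:3201287-3201586, strongest rank 5: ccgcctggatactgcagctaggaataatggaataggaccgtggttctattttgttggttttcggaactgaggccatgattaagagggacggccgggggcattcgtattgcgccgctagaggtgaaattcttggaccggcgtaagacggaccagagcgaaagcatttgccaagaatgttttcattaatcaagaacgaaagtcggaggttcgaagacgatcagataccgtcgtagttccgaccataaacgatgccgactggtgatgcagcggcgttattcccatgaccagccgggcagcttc
chrX:94865662-94865961, strongest with a CTCF match: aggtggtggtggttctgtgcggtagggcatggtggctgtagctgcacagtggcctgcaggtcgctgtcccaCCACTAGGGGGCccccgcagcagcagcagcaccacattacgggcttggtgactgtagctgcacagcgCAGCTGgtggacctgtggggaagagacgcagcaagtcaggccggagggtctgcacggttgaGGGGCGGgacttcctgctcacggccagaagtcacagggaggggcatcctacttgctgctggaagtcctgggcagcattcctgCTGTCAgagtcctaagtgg
chr14:81307233-81307532, farthest: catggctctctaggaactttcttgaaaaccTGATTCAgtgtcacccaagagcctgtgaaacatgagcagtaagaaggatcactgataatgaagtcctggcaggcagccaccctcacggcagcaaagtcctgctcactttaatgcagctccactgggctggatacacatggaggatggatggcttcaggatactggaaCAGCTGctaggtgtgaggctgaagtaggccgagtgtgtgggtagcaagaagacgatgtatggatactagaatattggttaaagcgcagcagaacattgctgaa
chr12:92812348-92812647, farthest rank 3: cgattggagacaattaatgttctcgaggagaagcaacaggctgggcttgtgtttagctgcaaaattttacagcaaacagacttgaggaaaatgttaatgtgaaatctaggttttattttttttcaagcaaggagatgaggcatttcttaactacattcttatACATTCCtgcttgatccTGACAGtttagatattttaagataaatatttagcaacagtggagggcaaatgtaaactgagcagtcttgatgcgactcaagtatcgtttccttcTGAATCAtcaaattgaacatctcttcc
chr1:167532815-167533114, higher in Eed KO, near Rxrg: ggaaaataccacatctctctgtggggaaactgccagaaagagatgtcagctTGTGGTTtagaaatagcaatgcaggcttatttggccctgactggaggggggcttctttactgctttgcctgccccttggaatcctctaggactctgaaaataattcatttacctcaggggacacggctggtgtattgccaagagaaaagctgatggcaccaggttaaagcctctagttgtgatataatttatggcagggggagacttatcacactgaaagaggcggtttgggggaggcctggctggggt
chr12:9762577-9762876, lower in Eed KO, near Osr1: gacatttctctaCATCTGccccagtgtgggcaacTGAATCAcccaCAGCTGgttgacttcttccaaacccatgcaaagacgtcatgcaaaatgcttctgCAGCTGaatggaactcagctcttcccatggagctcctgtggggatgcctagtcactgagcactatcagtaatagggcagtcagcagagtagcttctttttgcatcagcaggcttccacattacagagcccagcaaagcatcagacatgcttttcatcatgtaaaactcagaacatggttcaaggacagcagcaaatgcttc
chr16:64146021-64146320, higher in intestine, near Epha3: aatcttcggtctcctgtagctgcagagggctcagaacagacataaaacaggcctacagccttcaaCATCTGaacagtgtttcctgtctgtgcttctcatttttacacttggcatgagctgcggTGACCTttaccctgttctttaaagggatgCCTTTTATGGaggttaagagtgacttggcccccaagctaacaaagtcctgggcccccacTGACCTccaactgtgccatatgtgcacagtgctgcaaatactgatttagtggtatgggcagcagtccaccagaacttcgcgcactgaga
chr5:71456951-71457250, higher in stomach, near Gabra4: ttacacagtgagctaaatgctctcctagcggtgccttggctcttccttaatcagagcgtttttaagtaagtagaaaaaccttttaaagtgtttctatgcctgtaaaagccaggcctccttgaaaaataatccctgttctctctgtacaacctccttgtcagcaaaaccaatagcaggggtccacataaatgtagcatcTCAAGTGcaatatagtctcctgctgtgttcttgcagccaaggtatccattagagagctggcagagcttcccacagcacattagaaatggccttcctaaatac
chr2:143696018-143696317, higher in stomach, near Pcsk2: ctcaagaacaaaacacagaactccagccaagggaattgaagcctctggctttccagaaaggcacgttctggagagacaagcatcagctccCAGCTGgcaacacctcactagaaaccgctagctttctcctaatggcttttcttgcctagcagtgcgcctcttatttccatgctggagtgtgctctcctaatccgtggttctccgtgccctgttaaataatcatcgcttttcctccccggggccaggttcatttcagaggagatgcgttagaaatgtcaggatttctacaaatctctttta

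Distance from gene starts and sharing among the lists went together, as the plot of distance shows. Of the merged regions within 1 kb of a gene start, 85.9% were found in all 4 lists. This share was 44.8% at 1 to 10 kb, 41.6% at 10 to 50 kb, 38.9% at 50 to 100 kb, 36.2% at 100 to 200 kb, 32.2% at 200 to 500 kb and 22.1% past 500 kb. The distal regions lay a median of 90.8 kb from the nearest gene start, and 2027 of them (11.9%) lay past 200 kb. Past 500 kb were 90 (0.529%), the farthest of all being at chr14:81307220-81307546, 964.9 kb from the pseudogene Gm9578. Its fold enrichments were 3.12 in control intestine, 3.62 in control stomach, 3.69 in Eed KO intestine and 4.01 in Eed KO stomach, close to those of the typical distal region. A later annotation, GENCODE vM21, placed a transcript start of the pseudogene Cyp2c73-ps 62.7 kb from this region, so the distance of 964.9 kb holds for the gene models used. At the other end, the 5 regions just inside the limit had centres 50004 to 50016 bp from a gene start and geometric mean fold enrichments of 2.93 to 5.49, and the 5 just outside had centres at 49987 to 49998 bp and fold enrichments of 2.82 to 3.98.

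**Figure D1:**
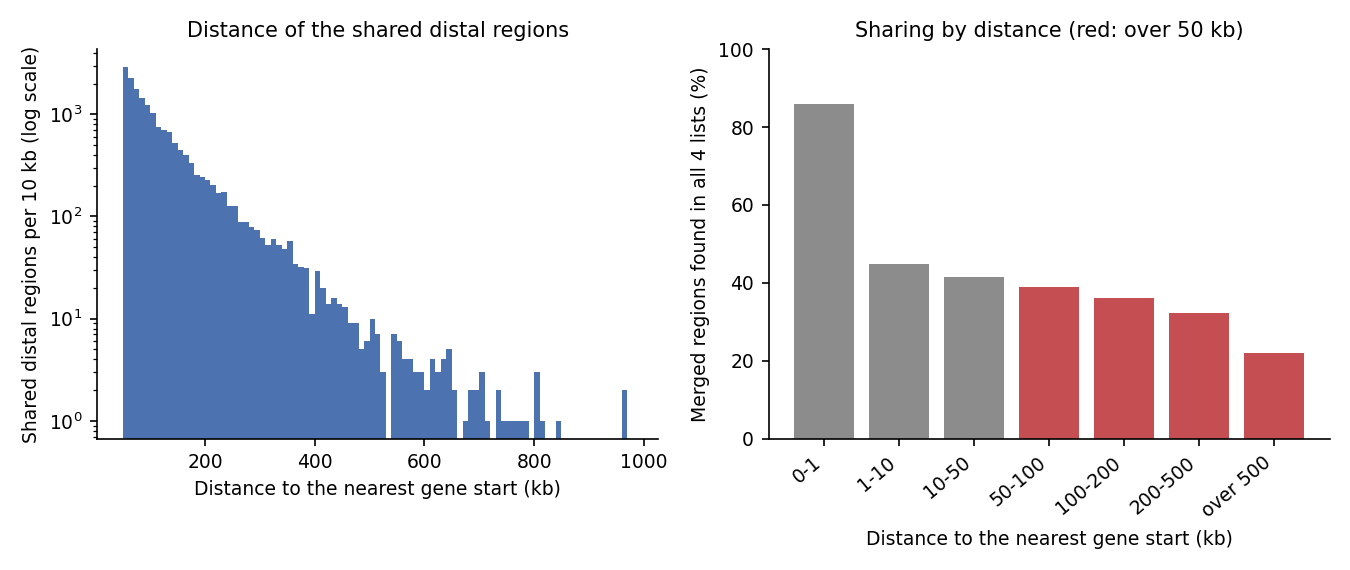
Left, number of shared distal regions per 10 kb of distance to the nearest gene start (log scale). Right, share of merged regions found in all 4 peak lists (%) in 7 ranges of distance, with ranges past 50 kb in red; the share was 85.9% within 1 kb of a gene start and 22.1% past 500 kb.

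The fold enrichments of the distal regions were close to those of shared regions nearer to genes, and below those at gene starts. Their medians were 4.10 in control intestine, 4.10 in control stomach, 3.91 in Eed KO intestine and 4.03 in Eed KO stomach. In the same order of lists, the 41704 shared regions at 1 to 50 kb had medians of 4.24, 4.21, 4.08 and 4.21, and the 13725 within 1 kb had 6.75, 6.65, 6.34 and 6.57. Distal regions found in 2 or 3 lists were weaker, with medians of 2.90 to 3.05, and those found in 1 list weaker again, at 2.63 to 2.73. The median −log10 q of the peaks in the shared distal regions was between 6.27 and 6.84, and 13706 regions (80.6%) had a −log10 q of at least 2 in every list. The distal regions were 960 bp wide at the median, and 16417 (96.5%) held exactly 1 peak from each list.

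About as many distal regions lay inside genes as between them. A gene body covered 8469 of them (49.8%), 8100 within introns and 369 over an exon, and 8541 (50.2%) lay between genes. The share inside genes was 53.3% at 50 to 100 kb and 15.6% past 500 kb. The regions covered 1.91% of the 970.75 Mb of the genome that lies past 50 kb from a gene start, at 17.5 regions per Mb. They were unevenly spread over the chromosomes: distal regions were 12.6% of the shared regions of the gene-rich chromosome 11, and 35.8% and 33.8% of those of chromosomes 18 and 13. The gene starts came from an older gene annotation, and 881 distal regions (5.18%) lay within 1 kb of a transcript start of a later one, GENCODE vM21, of which 527 were starts of protein-coding genes and 221 of lincRNAs. These 881 regions held more CpG dinucleotides than the other distal regions (a mean of 8.52 against 4.15 per 300 bases) and somewhat higher fold enrichments (4.47 against 3.99), so the name "far from gene starts" holds for the gene models used and not for every known transcript.

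The distal regions were clustered along the genome. The median distance to the next one was 21.4 kb, 5036 pairs of neighbours (29.6%) were within 10 kb of each other, and 1086 chains of 3 or more such neighbours held 4035 regions (23.7%). The longest chain had 14 regions over 77.0 kb at chr14:25015259-25092308, none inside a gene, with a median fold enrichment of 3.34. In fixed windows of 1 Mb, the median was 6 distal regions per window that held any, and 186 windows with 20 or more held 4903 regions (28.8%). The densest window, chr9:61000001-62000000, had 60 regions, none inside a gene. Among genes tested in the RNA comparisons below, Tle3 was nearest to 37 of them. Tle3 is a corepressor that acts with Wnt and Notch pathway transcription factors. With all gene models counted, 15 were nearest to Tle3 and 21 to Gm10655. The next 4 windows were chr14:22000001-23000000 with 53 regions, all inside genes, chr6:100000001-101000000 with 46, chr12:79000001-80000000 with 45 and chr5:111000001-112000000 with 44. Among tested genes, those nearest to the 53 were 1700112E06Rik and Gm10248. The nearest tested gene was the Polycomb protein gene Rybp for 31 of the 46, and the RNA-binding protein gene Zfp36l1 for 24 of the 45. For 17 of the 44 it was Pitpnb, a phosphatidylinositol transfer protein gene. With all gene models counted, Rybp was nearest to 24 regions of its window. Gm5670, Gm28056 and Gm27602 were then nearest to the most regions in the chr14, chr12 and chr5 windows. None of the tested genes nearest to regions in these windows was called in the RNA comparisons below.

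In sequence, the distal regions resembled the shared regions nearer to genes more than gene starts. Their windows of 300 bases had a median GC content of 47.0% and a mean of 4.38 CpG dinucleotides, against 22.3 CpG in shared regions within 1 kb of a gene start and 1.95 in 3074452 peak-free windows past 50 kb. Repeats masked 12.6% of their bases, against 37.0% of the peak-free windows. The mean GC content was 46.9% in the distal regions and 39.8% in the peak-free windows, and the motif shares were not adjusted for it. The E-box CAGCTG, bound by basic helix-loop-helix factors, stood in 23.7% of the distal regions, 24.5% of shared regions at 1 to 50 kb and 8.76% of peak-free windows. The motif ACATTCC of the TEAD factors, which end the Hippo pathway, stood in 7.99%, 6.71% and 3.96%, and TGACAG of the MEIS and TGIF homeodomain factors in 24.0%, 22.9% and 17.7%. The CATCTG E-box of TWIST and HAND factors stood in 27.3% of distal regions and 21.2% of peak-free windows, the AP-1 motif TGANTCA in 10.3% and 9.01%, and CREB (TGACGTCA) in 0.335% and 0.126%. The forkhead motif TGTTTAC stood in 6.28% and 4.66% of distal regions and peak-free windows, and PBX with HOX (TGATTTAT) in 2.65% and 2.13%. The NFI palindrome stood in 0.800% and 0.0647%, and the nuclear receptor hexamer AGGTCA in 15.7% and 15.1%. Other motifs were rarer in the distal regions than in the peak-free windows, among them the homeodomain motif TAATTA (7.0% against 12.4%), the SOX motif ACAATGG (3.60% against 5.74%), the TCF and LEF motif ATCAAAG (4.72% against 6.74%), the RUNX motif TGTGGTT (5.93% against 6.51%) and the GATA motif AGATAAG (3.76% against 4.69%). Others were about as common, such as the NKX2 motif CACTTGA (4.50% against 4.51%) and the CArG box of serum response factor (1.71% against 1.85%). Both strands were searched, and motifs such as TGACAG and CAGCTG can share bases. The GC-rich motif GGGGCGG of SP and KLF factors, at home in promoters, stood in 3.35% of the distal regions and 32.3% of those within 1 kb of a gene start, and the ETS motif CCGGAAG in 1.59% and 11.3%.

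The long motif of CTCF, the factor that anchors chromatin loops and insulates domains, was more frequent in the stronger of the distal regions. It stood in 466 distal regions (2.74%), in 5.23% of shared regions at 1 to 50 kb, in 1.44% of distal regions found in 2 or 3 lists, in 0.920% of those found in 1 list and in 0.107% of peak-free windows. Shared regions within 1 kb of a gene start held it in 1.58%, although their fold enrichments were higher than those of the distal regions. Across 10 classes of distal regions by fold enrichment, with 1701 in each, the share was 0.353% in the lowest, 1.06% in class 5 and 9.52% in the highest, as drawn in the plot of CTCF matches. Regions with a match had a median fold enrichment of 5.68, against 3.98 for those without, and were narrower, 436 bp against 980 bp. The other motifs differed less over these classes: the E-box share went from 21.4% to 25.9%, and the MEIS and TGIF share from 26.6% to 23.4%. The strongest region with a CTCF match, chrX:94865570-94866053, had fold enrichments of 14.9, 15.8, 16.0 and 16.3 in control intestine, control stomach, Eed KO intestine and Eed KO stomach, and lay 67.6 kb from Zxda.

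**Figure D2:**
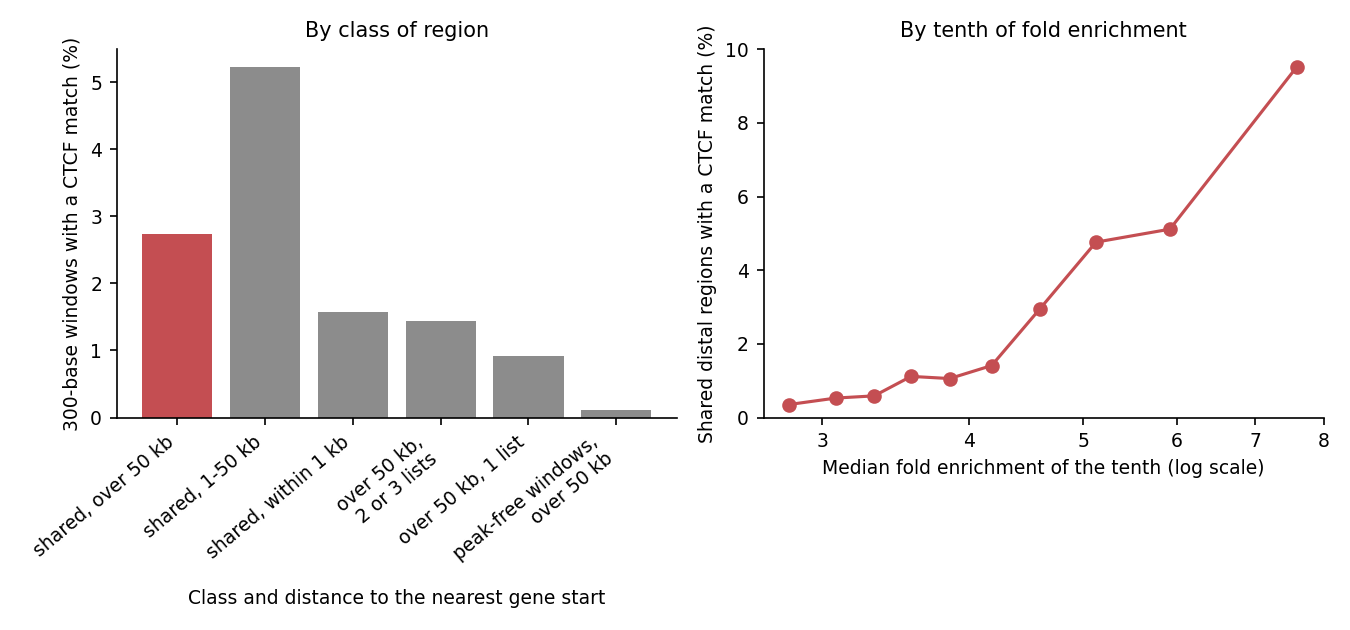
Left, share of windows of 300 bases with a match to the CTCF motif (%) in 5 classes of region and in peak-free windows. Right, the same share in 10 classes of the shared distal regions against the median fold enrichment of each class (log scale), from 0.353% in the lowest to 9.52% in the highest; points are shares of 1701 regions, with no replicate error.

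The highest fold enrichments of all went to short regions, several of which had near copies elsewhere in the genome. The top region, chr6:103649070-103649292 in an intron of Chl1, had fold enrichments of 36.4, 36.7, 38.9 and 38.6 in the 4 lists in the order above, and 10 other places in the genome matched it at 90% identity or more over 100 bp or more. The second, chr12:78350869-78351173 in an intron of Gphn, had 34.5, 31.7, 34.9 and 34.3 and 9 other matches, the longest of 97.5% identity in Lars2. Also among the first 5, chr6:3201267-3201607, had 23.6, 19.5, 26.1 and 27.8 and matched 2 other places, one at 97.1% over 341 bp within Rn18s-rs5, a copy of the 18S ribosomal RNA gene. By contrast, chr10:11491975-11492251 had 23.3, 25.7, 24.7 and 23.1, a GC content of 68.7% and no other match. Of the 100 strongest distal regions, 14 had at least 1 other match and 7 had 10 or more, while 5 of the first 10 had at least 1. How reads from such copies were placed was not tested.

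The fold enrichments of a distal region differed little among the 4 lists. The highest of the 4 values was a median of 1.34 times the lowest, at most 1.5 times in 12410 regions (73.0%) and more than 3 times in 10. Over the 17010 regions, the correlation (Pearson's r) of log2 fold enrichments between 2 lists was 0.797 for the 2 control organs, 0.819 for the 2 Eed KO organs, 0.808 for Eed KO and control intestine and 0.774 for Eed KO and control stomach. Each region was chosen for a peak in every list, which favours small ratios, and the regions share the library, depth and base composition of each list. The ratios and r values are therefore descriptions. The median log2 ratio of Eed KO over control was −0.05 in the intestine (SD 0.30 over regions) and −0.01 in the stomach (SD 0.33), and that of intestine over stomach 0.00 in controls (SD 0.31) and −0.04 in Eed KO (SD 0.30).

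Few distal regions differed by more than 1.5-fold the same way in both organs between Eed KO and control. These were 95 regions with higher and 172 with lower fold enrichment in Eed KO, beside 4 that differed in opposite ways and 2206 past 1.5-fold in either organ. Past 2-fold in both organs were 2 regions higher and 7 lower. Centring each ratio on its median over the regions gave 124 higher and 128 lower, so the surplus of lower regions depended on that choice, which was made after the data were seen. A CTCF match stood in none of the 172 lower regions and 6 of the 95 higher ones (6.32%), beside 2.74% of all distal regions. MEIS and TGIF matches stood in 56 of the 172 (32.6%) and 12 of the 95 (12.6%), beside 24.0% of all, and E-boxes in 59 (34.3%) and 17 (17.9%), beside 23.7%. GATA matches stood in 1 of the 172 (0.581%) and 7 of the 95 (7.37%), beside 3.76%. These 4 of the 20 motifs were picked after their values were seen.

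Among the regions higher in Eed KO, chr1:167532548-167533381 had fold enrichments of 2.93 in control intestine and 2.54 in control stomach, and of 6.35 in Eed KO intestine and 5.96 in Eed KO stomach. It lay 65.4 kb from Rxrg, a retinoid X receptor gene, whose RNA had a log2 fold change of 1.85 ± 0.40 (SE) in Eed KO intestine that did not pass the test (adjusted p = 0.058, edgeR quasi-likelihood test with Benjamini-Hochberg adjustment). In Eed KO stomach its value was −0.75 ± 0.34, which did not pass either (adjusted p = 0.25, edgeR). A second one, chr15:44706323-44706724 in an intron of Sybu, had 5.48 and 5.66 in the control lists and 10.3 and 11.5 in the Eed KO lists. The largest ratios were at chr12:20614829-20615744, with 5.25 and 5.03 in controls and 13.0 and 12.8 in Eed KO; it lay over the later-annotated processed pseudogene Gm16476 and matched 32 other places in the genome. Among the regions lower in Eed KO, chr12:9762379-9763075 had 6.80 and 7.26 in the control intestine and stomach lists and 2.71 and 2.78 in the Eed KO lists. Its nearest tested gene, at 188 kb, was Osr1, a zinc-finger factor of intermediate and lateral mesoderm, and 1 other place matched the region, at 95.7% over 697 bp. The RNA of Osr1 had log2 fold changes of −0.29 ± 0.17 in Eed KO intestine (adjusted p = 0.56, edgeR) and 0.94 ± 0.17 in Eed KO stomach (adjusted p = 0.019), the latter in the direction opposite to the region. The region chr3:66480764-66481094 had 6.63, 6.38, 2.60 and 2.95 in the same order, and chr4:78513272-78513676 had 8.99, 9.01, 4.13 and 2.87, was 89.7% repeat sequence and matched 1191 other places.

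Between the organs, 91 distal regions were past 1.5-fold higher in intestine in both genotypes and 140 were higher in stomach, with 6 opposite; centred on the medians these were 107 and 121. The largest difference was at chr5:71456806-71457396 in an intron of Cox7b2, with fold enrichments of 9.28 and 9.78 in control and Eed KO stomach and 2.68 and 2.89 in intestine. Its nearest tested gene was Gabra4, a GABA-A receptor subunit, 201 kb away, whose RNA was lower in intestine by a log2 fold change of −2.93 ± 0.21 (adjusted p = 0.00046, edgeR) in controls and −1.98 ± 0.20 (adjusted p = 0.0021) in Eed KO. The region chr2:143695640-143696696 in an intron of Pcsk2, a prohormone convertase gene, had 6.47 and 6.83 in stomach and 2.95 and 3.20 in intestine. In the RNA, Pcsk2 was lower in intestine by −2.59 ± 0.49 in controls (adjusted p = 0.021, edgeR) and −2.41 ± 0.42 in Eed KO (adjusted p = 0.018). Of the regions higher in intestine, chr16:64145736-64146605 had 7.85 and 7.44 in control and Eed KO intestine and 2.86 and 3.29 in stomach. It lay 282 kb from the ephrin receptor gene Epha3, whose RNA had a log2 fold change of −0.39 in controls (adjusted p = 0.22, edgeR), which did not pass the test, and of −0.94 ± 0.15 in Eed KO (adjusted p = 0.013), opposite in direction to the region. The plot of ratios sets both comparisons side by side.

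**Figure D3:**
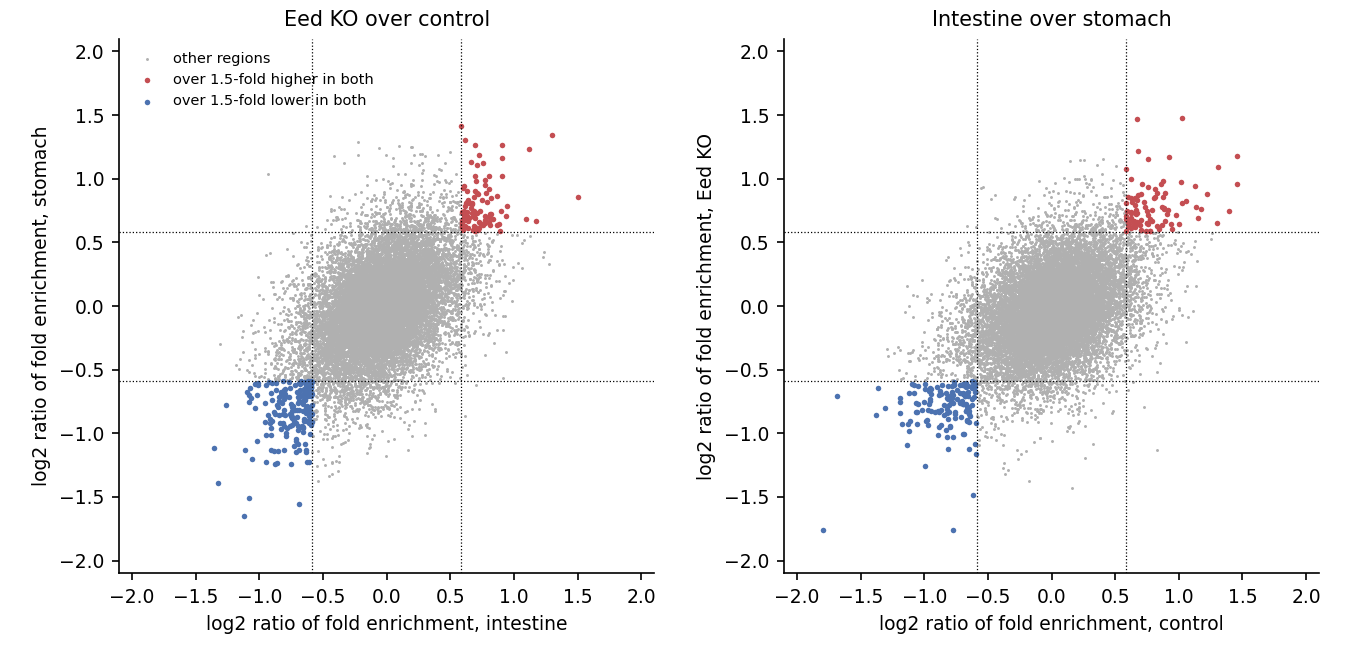
Log2 ratios of fold enrichment for the 17010 shared distal regions, 1 point per region. Left, Eed KO over control in intestine (x axis) and stomach (y axis), with 95 regions past 1.5-fold higher and 172 lower in both; right, intestine over stomach in controls (x axis) and in Eed KO (y axis), with 91 higher and 140 lower in both.

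RNA-seq of the same sorted populations gave 30236159 to 39606157 counts on genes per library, and 16218 of 43280 genes passed the low-count filter. Eed stood at 38.1 to 41.5 CPM (counts scaled to the library total) in the 4 control libraries and 7.40 to 11.5 in the 4 Eed KO libraries, which did not overlap. The 9 mesenchyme markers summed to 13356 CPM or more in every library, those of 6 epithelial markers to 34.0 to 69.7, and 4 leukocyte markers to 0.638 to 3.46, with Ptprc at 0 in all 4 stomach libraries. The 4 endothelial markers summed to 14.3 to 18.6 CPM in controls and 22.9 to 42.9 in Eed KO, and their part in the differences below was not tested. Lower levels through fewer cells of a type and through less RNA per cell cannot be told apart in these bulk samples, and p-values measure the spread between samples that the labels number as replicates.

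Each region was assigned to the nearest start of a tested gene, at a median of 135.8 kb; for 7847 regions (46.1%) this was also the nearest start of any gene. The 17010 regions fell to 3689 genes (22.7% of the tested ones), with a median of 3 regions per gene, and 456 genes with 10 or more held 6599 regions (38.8%). A call needed a log2 fold change past 1 in either direction with an adjusted p below 0.05. In Eed KO intestine, 123 genes with a region (3.33%) were higher than in control intestine, beside 2.38% of all tested genes, and 11 (0.298%) were lower, beside 0.228%. In Eed KO stomach, 259 (7.02%) were higher, beside 4.84% of all tested genes, and 55 (1.49%) lower, beside 0.808%. Between control intestine and stomach, 102 (2.76%) were higher in intestine, beside 1.68%, and 241 (6.53%) lower, beside 3.39%. Between the Eed KO organs, 90 (2.44%) were higher in intestine, beside 1.46%, and 223 (6.05%) lower, beside 2.94%. The comparisons share libraries and are not independent of one another. The median log2 fold change of the genes with a region was 0.05 in both Eed KO comparisons, beside 0.01 and 0.00 over all tested genes, and their median level of 18.1 CPM was near the 19.1 CPM of genes without a region. Of the 456 genes with 10 or more regions, 9 (1.97%) were higher in Eed KO intestine and 28 (6.14%) in Eed KO stomach, no larger a share than of all genes with a region.

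**Figure D4:**
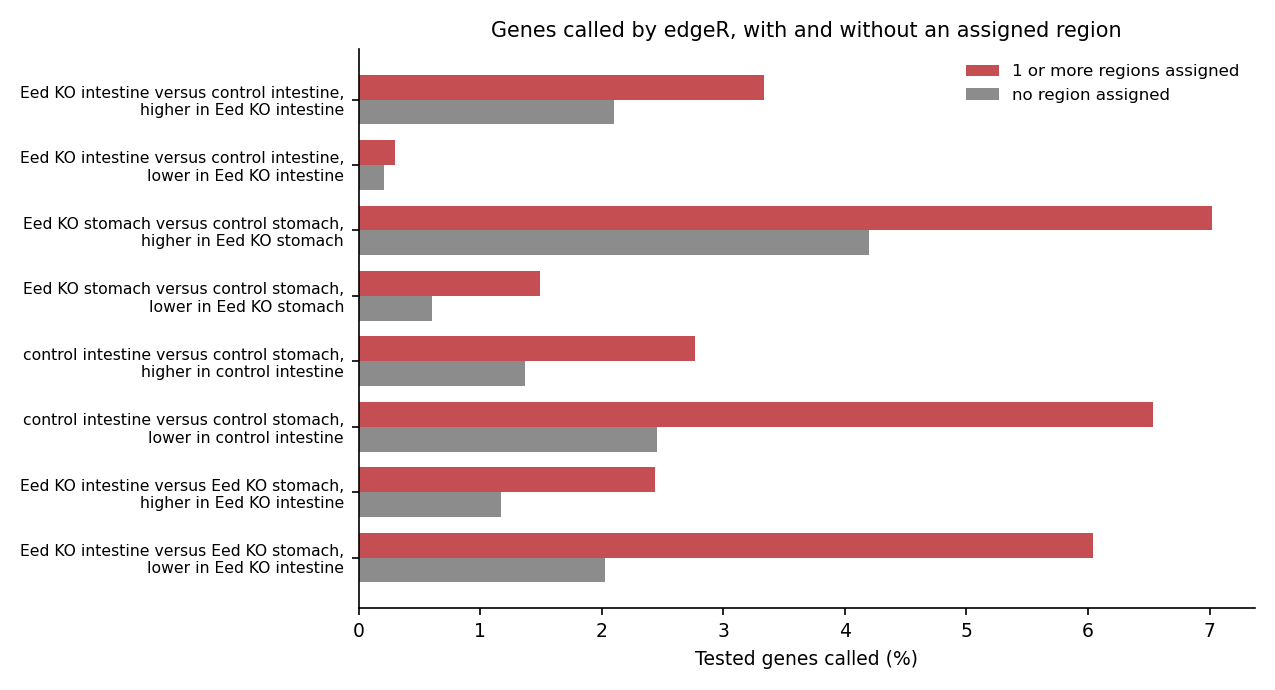
Share of tested genes called by edgeR (%) in the 4 comparisons, by direction, for the 3689 genes with an assigned shared distal region and the 12529 without; the share was 7.02% with and 4.2% without a region for genes higher in Eed KO stomach, and 0.298% and 0.208% for genes lower in Eed KO intestine.

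Scaling by the spike-in transcripts instead of by trimmed means moved the median log2 fold change of all tested genes by 1.85 in Eed KO intestine, 2.39 in Eed KO stomach, 0.30 between organs in control and −0.24 between organs in Eed KO. With it, 3088 genes with a region were called higher and 8 lower in Eed KO intestine, 3453 and 5 in Eed KO stomach, 22 and 42 between organs in control and 10 and 45 between organs in Eed KO. Spike-in counts were 26227 to 37590 in control and 4871 to 14932 in Eed KO libraries. The study itself normalized its counts by the spike-ins with RUV-seq and then tested them with DESeq2, a step not repeated here. All changes given here are relative to the median gene.

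The fold enrichments of the regions themselves differed little at the genes whose RNA differed. Regions that lacked a peak in any of the lists were left out by the rule, which favours small ratios. The 526 regions of the 123 genes higher in Eed KO intestine had a median log2 ratio of −0.03, beside −0.05 over all distal regions, and 3.04% of them were past 1.5-fold higher, beside 2.14%. For the 1179 regions of the 259 genes higher in Eed KO stomach the median was 0.02, beside −0.01, and 4.50% were past 1.5-fold higher, beside 3.74%. The 972 regions of the 241 genes lower in control intestine than in control stomach had a median of −0.03, beside 0.00, and 7.0% of them were past 1.5-fold lower, beside 3.50%. Of the genes nearest to regions that differed, the 90 genes nearest to the 95 regions higher in Eed KO in both organs held 12 (13.3%) called higher in Eed KO stomach, beside 7.02% of all genes with a region and 4.84% of all tested genes, among them the transcription factor genes Gata6, Egr2 and Eya1, and 4 (4.44%) in Eed KO intestine (Dsc2, Gata6, Mpped1 and Susd5), beside 3.33% and 2.38%. The call of Gata6 in intestine was lost with any library but control intestine replicate 2 left out (adjusted p = 0.055 to 0.14), and that in stomach without control stomach replicate 1, control stomach replicate 2 or Eed KO stomach replicate 2 (0.072, 0.10 and 0.063). Of the 163 genes nearest to the 172 lower regions, 7 (4.29%) were called higher and 2 (1.23%) lower in Eed KO stomach, beside 7.02% and 1.49% of all genes with a region. The 135 genes nearest to the 140 stomach-higher regions held 15 (11.1%) called lower in control intestine, among them Mecom, Nr2f1, Rarb and Pcsk2, and 5 (3.70%) called higher, beside 6.53% and 2.76% of all genes with a region and 3.39% and 1.68% of all tested genes. The 86 genes nearest to the 91 intestine-higher regions did not mirror this, with 3 (3.49%) called higher and 5 (5.81%) lower in control intestine. These regions were picked by their peak values and the genes by distance, and no share was tested.

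The 20 tested genes with the most distal regions held 625 of them (3.67%), and 1 of the 20 was called in any comparison. Auts2, a neurodevelopmental gene with a Polycomb partner role, had 45 regions 106 to 768 kb from its start, 31 of them inside genes. Its level was 33.7 and 43.0 CPM in control intestine, 37.7 and 52.6 in control stomach, 34.7 and 52.5 in Eed KO intestine and 42.3 and 51.6 in Eed KO stomach, so all groups overlapped. Foxp1, a forkhead repressor, had 35 regions at 195 to 775 kb, and its log2 fold change was −0.07 ± 0.15 in Eed KO intestine and 0.10 ± 0.15 in Eed KO stomach, neither past the test. Tle3 had 37 and the adhesion gene Cadm1 35. Maf, a leucine-zipper factor with 31 regions, was the called one: it stood at 101 and 112 CPM in control stomach and 195 and 247 in Eed KO stomach, a log2 fold change of 1.06 ± 0.16 (adjusted p = 0.0087, edgeR). That call was lost without control stomach replicate 1 (adjusted p = 0.080), control stomach replicate 2 (0.060) or Eed KO stomach replicate 2, when the fold change fell under the limit at 0.87. The median log2 ratio of the 31 Maf regions was −0.10 in the stomach.

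Developmental transcription factor genes of gene-poor neighbourhoods were mostly higher in Eed KO where they differed from control. Of 81 such genes on a list, 80 were tested and 61 had a region, 563 in all and a median of 7 each, beside 3 for all genes with a region. Of these 61, 19 rose (31.1%, beside 2.38% of all tested genes) and none fell in Eed KO intestine, with a median log2 fold change of 0.67, beside 0.01 for all tested genes. In Eed KO stomach, 17 rose (27.9%, beside 4.84%) and none fell, with a median of 0.35, beside 0.00. In control intestine against control stomach, 1 was higher and 17 were lower (27.9%, beside 3.39%; median −0.32, beside 0.00), and between the Eed KO organs 19 were lower (31.1%, beside 2.94%; median −0.35). The count of 19 in Eed KO intestine was 4 without control intestine replicate 1 and 13 without control intestine replicate 2 or Eed KO intestine replicate 2, and the 17 in stomach were 11 without control stomach replicate 2 or Eed KO stomach replicate 2. The 17 lower in control intestine were 11 without control intestine replicate 1 and 9 with spike-in scaling, and the 19 between the Eed KO organs were 13 without Eed KO stomach replicate 2 and 3 with spike-in scaling. The members were listed with earlier results of these data known, so the counts are no independent evidence of a direction.

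Some of these factors were silent or near it in control libraries, and others rose in Eed KO from clear control levels. Tbx5, a T-box factor of heart and forelimb, had 8 regions 56.6 to 139 kb away. It was at 0 in both control intestine libraries, 0.174 and 0.127 CPM in control stomach, 2.51 and 4.37 in Eed KO intestine and 8.64 and 11.5 in Eed KO stomach. It was thus at least 74.0-fold higher in Eed KO intestine, against 3 counts over the control group, and rose by a log2 fold change of 6.04 ± 0.44 in Eed KO stomach (adjusted p = 0.0010, edgeR). Its 8 regions, which by the rule held peaks in the control lists too, had median log2 ratios of −0.02 and 0.17. Ebf3, an early B-cell factor family member with 5 regions, stood at 2.95 and 2.46 CPM in control intestine, 5.83 and 4.21 in control stomach, 18.5 and 27.0 in Eed KO intestine and 110 and 133 in Eed KO stomach. It rose by 3.07 ± 0.25 (adjusted p = 0.0022, edgeR) and 4.6 ± 0.25 (0.00017), while its regions had median log2 ratios of −0.34 and 0.01. Gata4, a zinc-finger factor of foregut mesoderm with 4 regions, went from 1.01 and 1.38 CPM to 10.2 and 20.5 in the intestine and from 14.5 and 15.5 to 87.2 and 93.8 in the stomach. Its log2 fold changes were 3.69 ± 0.36 (adjusted p = 0.0034, edgeR) and 2.59 ± 0.30 (0.0030), and the first was lost without control intestine replicate 1 (adjusted p = 0.055). Klf4, a zinc-finger factor with 10 regions 135 to 539 kb away, stood at 12.1 and 15.6 CPM in control stomach and 34.9 and 38.6 in Eed KO stomach, and rose there by 1.41 ± 0.15 (adjusted p = 0.0023, edgeR). Irx2, with 4 regions 189 to 296 kb away, rose in Eed KO stomach by 4.39 ± 0.51 (adjusted p = 0.0033, edgeR), and Tbx20, with 3, by 3.71 ± 0.46 (0.0042). Irx1, the neighbour of Irx2 in the Iroquois cluster, had 21 regions at 66 to 560 kb and 0.0562 and 0.0337 CPM in control intestine against 0.739 and 1.40 in Eed KO intestine, a ratio of 23.0 with a 95% counting interval of 7.57 to 114. That call was lost without control intestine replicate 1 (adjusted p = 0.19), control intestine replicate 2 (0.16) or Eed KO intestine replicate 2 (0.083).

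Another group of these factors marked the stomach. Barx1, a homeodomain factor that specifies stomach mesenchyme, had 4 regions 53.9 to 98.0 kb away. It stood at 0.534 and 1.48 CPM in control intestine, 627 and 557 in control stomach, 9.47 and 13.2 in Eed KO intestine and 379 and 310 in Eed KO stomach. Control intestine was lower than control stomach by a log2 fold change of −9.23 ± 0.41 (adjusted p = 5.9e-05, edgeR), Eed KO intestine rose by 3.53 ± 0.37 (0.0047) and the change of −0.78 ± 0.27 in Eed KO stomach did not pass the test (0.14). The 4 Barx1 regions, with peaks in all 4 lists by the rule, had a median log2 ratio of intestine over stomach of −0.11 in controls. Mecom, a zinc-finger factor with 7 regions inside genes, stood at 0.197 and 0.202 CPM in control intestine and 38.8 and 52.5 in control stomach, a log2 fold change of −7.82 ± 0.27 (adjusted p = 2.5e-05, edgeR), with a median region ratio of −0.35. Sox9, a high-mobility-group factor with 12 regions 103 to 575 kb away, was at 0.983 and 1.18 CPM in control intestine, 12.3 and 10.6 in control stomach and 3.85 and 5.19 in Eed KO intestine. It was lower in control intestine by −3.40 ± 0.22 (adjusted p = 0.00032, edgeR) and rose in Eed KO intestine by 2.07 ± 0.22 (0.0053), a call lost without control intestine replicate 1 (adjusted p = 0.069). Pitx1, with 9 regions 62.5 to 150 kb away, was lower in control intestine by −4.18 ± 0.27 (adjusted p = 0.00032, edgeR), and Nr2f1, an orphan nuclear receptor with 10 regions at 246 to 829 kb, by −2.33 ± 0.14 (0.00026). Runx1, with 15 regions, was the listed factor higher in control intestine: it stood at 4.05 and 4.41 CPM there, 0.870 and 1.25 in control stomach and 4.35 and 6.06 in Eed KO stomach, a rise of 2.29 ± 0.27 in Eed KO stomach (adjusted p = 0.0037, edgeR). The plot of gene levels shows 16 of the listed factors in all libraries.

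**Figure D5:**
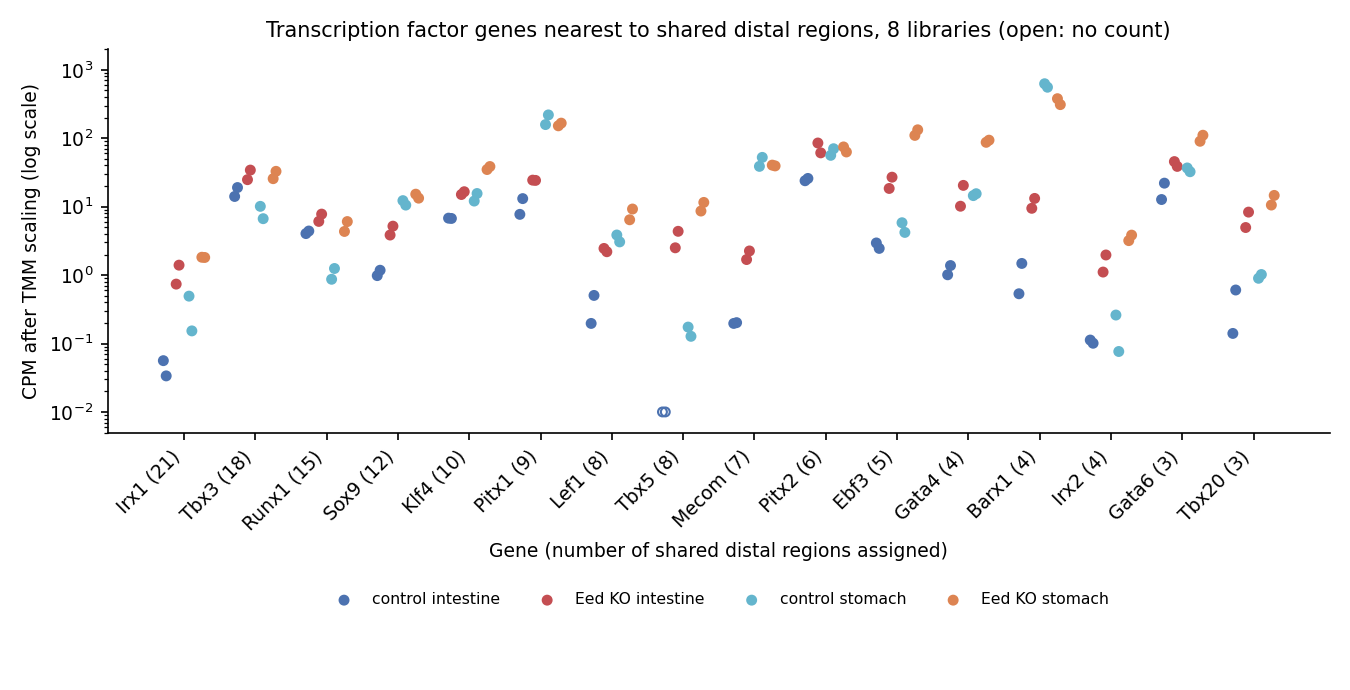
CPM after TMM scaling (log scale) of 16 listed transcription factor genes in 8 RNA-seq libraries, 2 points per group, with the number of assigned shared distal regions after each name and open points for libraries with no count. Barx1 stood at 557 to 627 CPM in control stomach and 0.534 to 1.48 in control intestine, and Tbx5 was at 0 in both control intestine libraries.

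Among secreted signals and antagonists, the chemokine gene Cxcl12 and the activin subunit gene Inhba rose in Eed KO stomach. Of 59 tested genes, 47 had a region, 260 in all. In Eed KO intestine 1 rose (2.13%, beside 2.38% of all tested genes) and none fell, with a median of 0.04. In Eed KO stomach 5 rose (10.6%, beside 4.84%) and 3 fell (6.38%, beside 0.808%), with a median of 0.09. Between the control organs 4 were higher and 8 lower in intestine (8.51% and 17.0%, beside 1.68% and 3.39%), and between the Eed KO organs 6 and 9 (12.8% and 19.1%, beside 1.46% and 2.94%). Cxcl12, with 19 regions 52.9 to 264 kb away, stood at 272 and 205 CPM in control stomach and 573 and 526 in Eed KO stomach, and rose by a log2 fold change of 1.20 ± 0.14 (adjusted p = 0.0037, edgeR). Inhba, with 14 regions, stood at 1.57 and 1.61 CPM in control stomach and 6.57 and 6.64 in Eed KO stomach, and rose by 2.06 ± 0.25 (0.0042). Its levels in intestine were 1.60 and 2.59 in control and 2.59 and 2.28 in Eed KO, which overlapped. Tgfb2, with 11 regions, and the growth factor gene Igf1, with 7, were lower in control intestine than in control stomach by −1.82 ± 0.16 (adjusted p = 0.00099, edgeR) and −1.70 ± 0.11 (0.00034), while Dkk2, an antagonist of Wnt signals whose 8 regions had a median fold enrichment of 6.00, was higher by 1.43 ± 0.14 (0.0011).

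Among adhesion and axon guidance genes, Efnb2 fell in Eed KO stomach and Cdh13 was higher in control intestine than in control stomach. Of 43 tested genes, 36 had a region, 317 in all. None was called in Eed KO intestine by edgeR or by DESeq2, and in Eed KO stomach 3 rose and 3 fell (8.33% each, beside 4.84% and 0.808% of all tested genes). The 3 that rose, Cdh13, Plxna4 and Tenm4, were not called without control stomach replicate 1 (adjusted p = 0.15, 0.24 and 0.18, edgeR), control stomach replicate 2 (0.13, 0.20 and 0.18), Eed KO stomach replicate 2 (0.086, 0.24 and 0.17) or control intestine replicate 1 (0.0505, 0.063 and 0.061). The last 2 were also lost without control intestine replicate 2 (0.062 and 0.059). Between the organs 1 was higher and 6 were lower in control intestine (2.78% and 16.7%, beside 1.68% and 3.39%), and 3 and 4 in Eed KO (8.33% and 11.1%, beside 1.46% and 2.94%). Efnb2, an ephrin ligand gene with 23 regions up to 1424 kb away, stood at 313 and 305 CPM in control stomach and 146 and 136 in Eed KO stomach, and fell by 1.13 on the log2 scale (SE 0.10, adjusted p = 0.0012, edgeR), a direction that turned to 1.24 with spike-in scaling. Its levels in intestine were 174 and 159 in control and 171 and 149 in Eed KO, which overlapped. Cdh13, a cadherin with 8 regions inside genes, was higher in control intestine, at 42.8 and 45.3 CPM, than in control stomach, at 4.38 and 4.74 (log2 fold change 3.27 ± 0.25, adjusted p = 0.00055, edgeR).

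Genes named for the size of their change also included several with 1 to 4 regions. Zic1, a zinc-finger factor of the neural plate and somites with 1 region at 244 kb, was at 0 in all 4 control libraries and at 2.35 and 5.05 CPM in Eed KO intestine and 38.2 and 45.6 in Eed KO stomach. It was at least 79.4-fold and at least 1029-fold higher, against 3 counts over each control group. Tfap2b, with 2 regions, was also at 0 in the 4 controls and at least 37.9-fold higher in Eed KO intestine and at least 119-fold in Eed KO stomach. Pax6, an eye and pancreas factor with 1 region inside a gene, was at least 31.3-fold higher in intestine and at 8.53 and 10.0 CPM in Eed KO stomach. En1 and Runx3, with 4 regions each, were at 0 in control stomach and at least 121-fold and at least 74.6-fold higher in Eed KO stomach. In the intestine, the calls of Zic1, Tfap2b and Pax6 were lost without control intestine replicate 1 (adjusted p = 0.080, 0.17 and 0.16) or replicate 2 (0.064, 0.12 and 0.11), and that of Pax6 also without control stomach replicate 2 (0.052). The region of Zic1 had a log2 ratio of 0.28 in intestine and 0.86 in stomach, and that of Pax6 −0.87 and −0.36.

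The genes named for the largest falls in Eed KO included transcripts with no role given here. RP23-349K15.2, with 8 regions, stood at 8.63 to 14.9 CPM in the 4 control and 0.302 to 0.376 in the 4 Eed KO libraries, and fell by 4.97 (SE 0.35, adjusted p = 0.00096, edgeR) and 5.19 (SE 0.35, 0.00041) on the log2 scale in intestine and stomach. Gm5611, with 2 regions, fell by 3.59 and 3.32. Eif3j2, a translation initiation factor gene with 2 regions, stood at 6.06 to 7.73 CPM in controls and 0.0805 to 0.211 in Eed KO; it is a near copy of Eif3j1, so its counts are uncertain. Syt4, a synaptotagmin with 2 regions 483 and 566 kb away, was at 4.84 and 5.76 CPM in control stomach and 0.617 and 0.713 in Eed KO stomach, a fall by 2.99 (SE 0.26, adjusted p = 0.00095, edgeR), and its −0.52 ± 0.23 in the intestine did not pass the test.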

How the data were processed

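ATAC-seq and RNA-seq were analysed for control and Eed KO stomach and intestine at embryonic day 13.5; 4 adult libraries gave gene models alone, with gene lengths and coordinates as the authors' count tables list them, and their counts were not used. The authors trimmed reads with Trimmomatic 0.32. ATAC-seq reads were aligned to GRCm38/mm10 with BWA 0.7.8, the 2 replicates of a condition were pooled and broad peaks were called with MACS2 2.1.2; the deposited lists give each peak's fold enrichment over local background as a ratio and its −log10 q value. The methods state a cut-off at a −log10 q of 2 and autosomal reads, but the lists held weaker peaks and 176 of the distal regions lay on chromosome X. RNA-seq reads were aligned with STAR 2.5.1b, and the authors deposited raw counts per gene from featureCounts 1.5.0 and for 99 spike-in transcripts.

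Peaks were merged with bedtools 2.31.1. Where a list had several peaks in a region, the highest was used. The members of the set, the motifs and the gene lists were chosen with earlier results of these data known. Windows of 300 bases were read from the GRCm38 reference, and copies of the 100 strongest and of the named regions were searched with BLAST 2.17.0 (90% identity, 100 bp). Counts were tested with edgeR 4.0.16 (R 4.3.3), with trimmed-mean scaling, filterByExpr and 1 quasi-likelihood fit over all 8 libraries; p-values were adjusted by Benjamini-Hochberg over 16218 genes, and ± gives the SE. The fit was checked on simulated counts. Named were the 20 genes with the most regions, up to 5 genes per direction with the largest changes in each Eed KO comparison (at least 1 CPM in the higher group, libraries not overlapping), and called members of the 3 lists with 3 or more regions; named regions were the 5 strongest, the 3 farthest, the 3 with the largest ratios in each direction, the 5 densest windows and the 5 on each side of the distance limit. Alternatives used other distances, widths, q limits and gene starts, spike-in totals, DESeq2 1.42.0, no filter, a replicate block, and each library left out. Bounds against groups at 0 use 3 counts, and intervals cover counting error only.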

Additional observations from a re-analysis of the deposited data

Results flagged for a closer look

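Nr2f1, Barx1 and Nrp1 stood out because the Eed KO libraries lay on opposite sides of the control libraries in the 2 organs. For Nr2f1, both Eed KO intestine libraries were above both controls and both Eed KO stomach libraries below, with log2 fold changes of 0.98 and −0.28 that differed by 1.27. For Barx1 they were 3.53 and −0.78, a difference of 4.31. For Nrp1, a neuropilin gene with 26 regions, the Eed KO libraries were lower in intestine (−0.25) and higher in stomach (0.22), a difference of −0.47. These differences were not tested.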

How the results depend on the processing

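The set depended on its limits. There were 17010 regions with the limit of 50 kb. Their number was 29223 with a limit of 25 kb (40.3% of shared regions, 51.8% inside genes, 3.29% with a CTCF match), 7394 at 100 kb (10.2%, 45.3%, 1.99%), 7007 at a −log10 q of 5 (17.3% distal, 5.54% with CTCF), 8868 under 1000 bp (24.7%, 47.2%, 4.74%), 30456 with starts of tested genes only (42.0% distal, 3.22% with CTCF) and, an alternative added after the data were seen, 7263 when GENCODE vM21 transcript starts counted too (10.0%, 41.8%, 2.23%). A −log10 q of 2 gave 22.0% distal and 3.28% with CTCF.

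Of genes with a region, 134 were called in Eed KO intestine, 314 in Eed KO stomach, 343 between organs in control and 313 between organs in Eed KO. Spike-in totals gave 3096, 3458, 64 and 55, and genes with a region past 100 kb 69, 164, 198 and 180. In Eed KO intestine, no low-count filter gave 250, DESeq2 218 and the replicate block 204; elsewhere the replicate block stayed within 1.5 times. A replicate block within genotype gave 449 between organs in control and 442 in Eed KO. Deviations of same-numbered libraries correlated at 0.26 and 0.63 between the organs of a genotype and at 0.05 to 0.15 across genotypes. Both organs were dissected from each animal, but the sources used here do not say whether a number marks an animal, so the pairing was not used. Leaving out 1 library gave 25 to 118, 128 to 343, 165 to 361 and 147 to 266, lowest without control intestine replicate 1, control stomach replicate 2, control intestine replicate 1 and Eed KO stomach replicate 2. Of 113 named calls, 61 held with each library left out, 113 with the replicate block and 112 with DESeq2. With spike-in totals, log2 fold changes turned positive for Cadm1 (1.71 in Eed KO intestine, 2.18 in stomach), Efna5 (1.85, 2.17), Efnb2 (1.75, 1.24) and Angpt1 (1.72, 1.85), in intestine for Foxp1 (1.86) and Dkk2 (1.75), and in stomach for Ntm (2.27), Lphn2 (2.31), Tgfb2 (2.07), Nr2f1 (2.09), Lrrn3 (2.37), Pitx1 (2.16), Mecom (2.18), Nog (1.67), Twist1 (2.19), Cdh4 (2.08) and Dach1 (1.77). For all of these, the cause was not tested. The peak values, from 1 pooled list per condition, have no replicate error, and the RNA calls rest on 2 libraries per group.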
